A study of Mus musculus with 3 samples.

Results

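The respiratory chain and ATP synthase genes were read in mouse dendritic cells grown from bone marrow. They were taken as every probe set that the platform annotation gives exactly 1 gene symbol, where that symbol starts with Nduf, Uqcr, Atp5, Cox4, Cox5, Cox6, Cox7 or Cox8 or is Sdha, Sdhb, Sdhc, Sdhd, Cycs or Cyc1. This gave 184 probe sets of 92 genes, out of 45101 probe sets and 18193 genes with a probe set of their own. The data were 3 Affymetrix arrays, 1 each for cells kept 24 h with LPS at 1 µg/mL, with PTX at 100 ng/mL or with PBS as the control. LPS (lipopolysaccharide) comes from bacterial outer membranes and acts through Toll-like receptor 4, and the labels leave PTX as an abbreviation. All groups came from marrow of female mice aged 6 weeks, cultured with GM-CSF at 20 ng/mL, from which nonadherent cells were taken on day 7. The strain label read C57BL/6 for the LPS and PBS samples and C57BL/7 for the PTX sample. With 1 array per group no difference has a replicate check, so sizes are described and no p-value is given, and whether the cultures shared animals or a marrow preparation is not stated.

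The respiratory chain sits in the inner mitochondrial membrane. Complex I takes electrons from NADH and complex II takes them from succinate, complex III passes them to cytochrome c, complex IV hands them to oxygen, and complex V (ATP synthase) uses the proton gradient so built to make ATP. Dendritic cells activated through Toll-like receptors are known for a shift towards glycolysis, in which nitric oxide made by the cells inhibits the chain at the protein level. Nearly all of the subunits read here are encoded in the nucleus, and their genes share regulators such as nuclear respiratory factor 1 (gene Nrf1) and the ETS factor GABP.

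The promoter windows of 3 genes are shown first as examples of chain genes that hold (Cycs, Sdhb) or lack (Ndufa4) the letters of the nuclear respiratory factor 1 motif, of which Sdhb and Ndufa4 were past 2-fold with LPS. Cycs encodes cytochrome c, Sdhb encodes the iron-sulfur subunit of complex II and Ndufa4 encodes a subunit of complex IV. The sequences are the 150 bases before the start of each gene, 5′ to 3′ on the gene's strand, from RefSeq on GRCm38.p6, with capitals marking GCATGCGC, the core of the nuclear respiratory factor 1 motif. They lie at chr6:50566570-50566719 on the minus strand for Cycs, at chr4:140961121-140961270 on the plus strand for Sdhb and at chr6:11907451-11907600 on the minus strand for Ndufa4.
Cycs: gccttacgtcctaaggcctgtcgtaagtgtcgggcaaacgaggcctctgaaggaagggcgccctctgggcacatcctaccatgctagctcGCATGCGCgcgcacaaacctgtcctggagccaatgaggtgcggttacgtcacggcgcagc
Sdhb: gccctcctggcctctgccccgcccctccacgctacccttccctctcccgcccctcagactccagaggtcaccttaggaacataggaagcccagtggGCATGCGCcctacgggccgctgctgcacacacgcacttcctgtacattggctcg
Ndufa4: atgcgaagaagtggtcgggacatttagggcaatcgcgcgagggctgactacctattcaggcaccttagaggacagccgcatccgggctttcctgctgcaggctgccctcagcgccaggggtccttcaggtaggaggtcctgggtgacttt

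A promoter was given for 75 of the 92 genes, and 9 of them (12%) held GCATGCGC on either strand in the 250 bases before the start. The same letters stood in 2.56% of the 27025 genes of the promoter table and in 4.81% of the measured genes with a promoter. The 9 were Atp5g2, Atp5k, Atp5l, Cox6a1, Cycs, Ndufa6, Ndufa8, Ndufaf4 and Sdhb. Of the 6 genes with a promoter that were past 2-fold with LPS, 1 (Sdhb) held it. The ETS core CCGGAAG, searched on both strands, stood in 14 of the 75 (18.7%), against 15.1% of measured genes and 7.83% of the table. The YY1 core AAGATGGC stood in 1 of the 75 (1.33%, against 2.42% of measured genes) and the cyclic AMP response element TGACGTCA in 4 (5.33%, against 2.93% of measured genes). A match is a string of letters and not a shown binding site.

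Values are probe set intensities on a linear scale, and a difference is that of log2(intensity + 16). The brightest probe set stood for its gene, which was taken as measured where 1 or more arrays read at least 78.93, the median of all values. A gene can pass through its highest array alone. Of the 92 genes 87 were measured and 5 were not, namely Ndufb4, Ndufa4l2, Cox6b2, Cox7b2 and Cox8b. Of the 184 probe sets 168 reached that level. Another 10 probe sets that list several symbols, a chain gene among them, are not named. Ndufa11, Ndufs6 and Cox7b are not analysed here. Intensities of different probe sets are not on a common scale, so a level is compared only with the same probe set on another array.

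The LPS array stood apart from the others. Its median intensity was 65.3, against 86.9 on the PTX array and 85.7 on the PBS array. The ratio of 3′ to 5′ signal of 18S ribosomal RNA was 1.95 on the LPS array, 0.20 on the PTX array and 0.26 on the PBS array. For beta-actin this ratio was 1.39, 1.40 and 1.33 in the same order, and for Gapdh it was 0.96, 1.12 and 1.02. The LPS array thus stood apart in the 18S ratio and not in those of these messenger RNAs. The 4 probe sets of the cre transcript, a control added to every sample in the same amount, were higher by a mean log2 difference of 0.56 in LPS against PBS and of 0.05 in PTX against PBS. Bright genes in general read higher on it too: over the 2460 brightest measured genes the median difference in LPS against PBS was 0.20, and over the 2460 dimmest it was -0.23. Dendritic cell markers were present, with 10 of 10 listed genes at the measured level on the LPS array, 10 on the PTX array and 9 on the PBS array, where Flt3 read 62.1.

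In LPS against PBS, respiratory chain and ATP synthase genes were higher as a group, mostly by small amounts. The median log2 difference of the 87 measured genes was 0.52, with 75 of them (86.2%) above 0. Over all 12299 measured genes the median was -0.08, with 44.0% above 0. Of the 87 genes 7 (8.05%) were 2-fold or more higher and none was 2-fold or more lower. Among all measured genes these shares were 6.5% higher and 13% lower, so the share past 2-fold upwards was near the background, while downwards it was 0 against 13%. Most members are bright: 70 of the 87 were among the 2460 brightest genes, and their median was 0.57 with 91.4% above 0, against 0.19 and 63.5% for the 2390 other bright genes. Of those other bright genes 9.37% passed 2-fold upwards and 3.31% downwards, against 5 and 0 of the 70.

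The size of this shift depended on the scaling. The members' median of 0.52 was about as large as the 0.56 of the cre control, the brightest of the added controls, and larger than the mean of 0.22 over all 18 hybridization control probe sets, of which 14 were above 0. The part of the array's brightness response in it was not tested. Relative to the median of all measured genes the members lay 0.60 higher with the values as deposited, 0.20 higher after quantile normalization and 0.27 higher once the lowess curve of the difference against brightness was subtracted. The members' median stayed above 0 in each of these. Centring each array on its median added 0.32 to every LPS minus PBS difference, and centring on the hybridization controls took off 0.22. The sign of a single difference between -0.32 and 0.22 therefore depends on which of these 2 centrings is used. This holds for 20 of the 87 members, while 66 lie above that interval. A sign above the interval can still change under other scalings, as for Atp5d, at 0.26 as deposited and -0.02 with the brightness curve subtracted. The median of all genes was 0.24 with median centring, 0.08 after quantile normalization and -0.31 with control centring. All measured genes past 2-fold numbered 799 higher and 1601 lower as deposited, 1397 and 1073 with median centring, 940 and 1214 after quantile normalization, and 554 and 2112 with control centring.

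**Figure D1:**
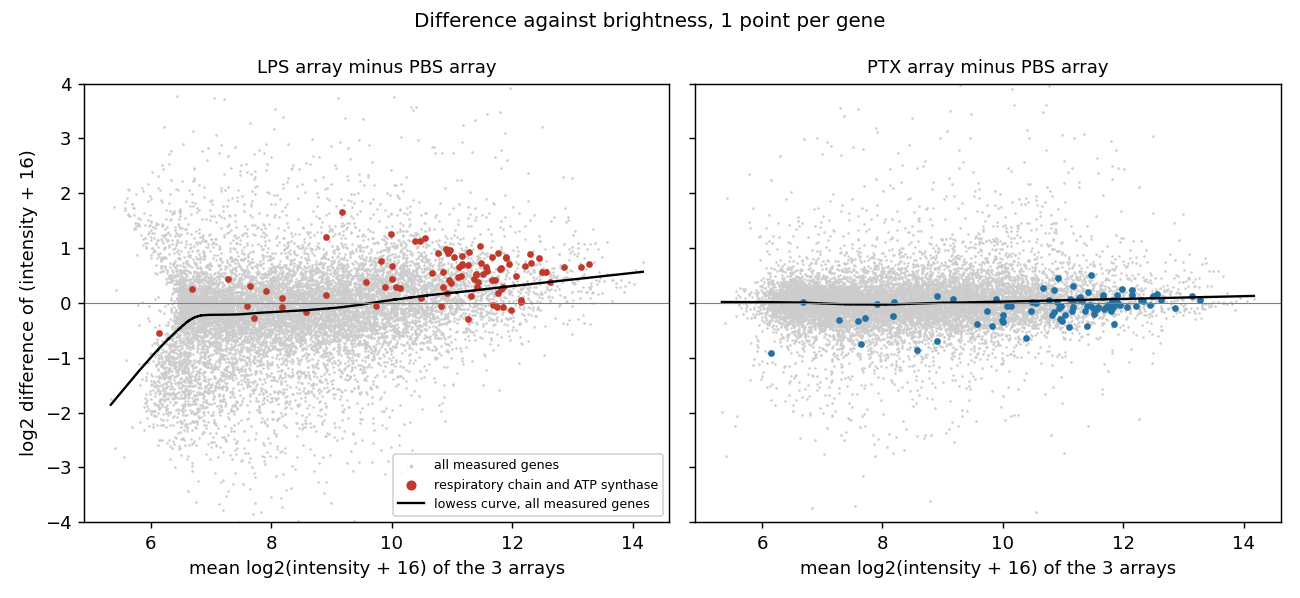
Difference on the log2(intensity + 16) scale (y axis) against the mean log2(intensity + 16) of the 3 arrays (x axis) for all 12299 measured genes in grey and the 87 respiratory chain and ATP synthase genes in colour, for LPS minus PBS on the left and PTX minus PBS on the right, with the lowess curve of all measured genes. On the left most coloured points lie above 0 and 72 lie above the curve, on the right they lie around 0, and 25 genes on the left and 12 on the right fall outside the axis range of -4 to 4.

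Markers of other cells and of cell division also differed between the arrays. Markers of macrophages (8 of 8 at the measured level on every array) had a summed intensity of 32088 on the LPS array, 31930 on the PTX array and 18723 on the PBS array, a sum set mostly by Csf1r, Adgre1 and Cd68. Its members did not move as one, since Mrc1 (-2.05) and C1qa (-0.65) were lower in LPS against PBS and Fcgr1 was higher (2.73). Markers of dividing cells summed to 1345 on the LPS array, 1596 on the PTX array and 6551 on the PBS array. Markers of neutrophils summed to 11908, 5441 and 10443 in the same order, mostly through S100a8 (9306, 4007 and 6074), while S100a9 read 1924, 1083 and 3877, and Mpo and Elane were below the measured level on every array. Those of mast cells and eosinophils summed to 1999, 199 and 358, with Mcpt8, Ms4a2 and Epx below the measured level on every array. On the LPS array that sum came mostly from Prg2 (1274, 31.4 and 117 in the same order) and Cpa3 (550, 74.2 and 96.3). At the measured level were 0, 0 and 1 of 3 T cell markers on the LPS, PTX and PBS arrays, 2, 1 and 1 of 4 stromal markers, and on every array 0 of 3 B cell and 0 of 2 erythroid markers. The part of these cells in the respiratory chain values was not tested, and in bulk RNA fewer cells of a type and less RNA per cell cannot be told apart.

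**Figure D2:**
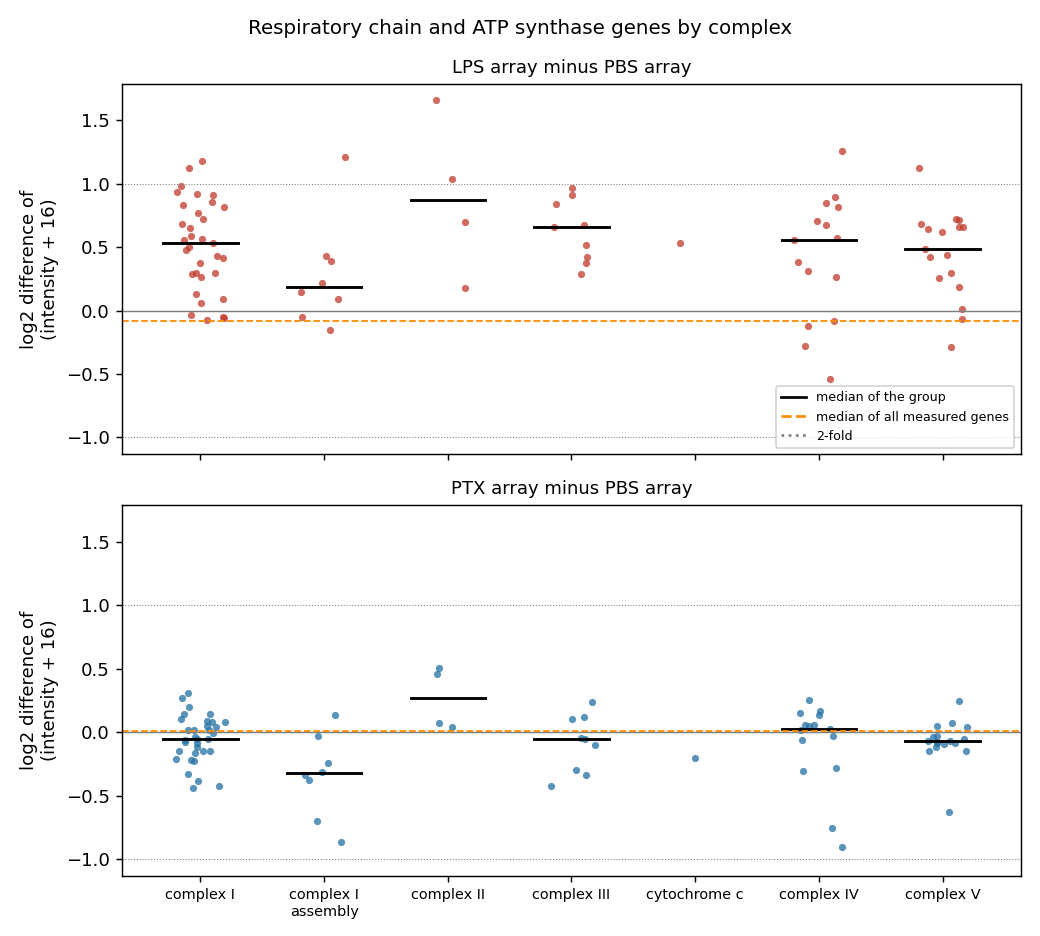
Difference on the log2(intensity + 16) scale (y axis) of each measured member, 1 point per gene, by complex (x axis), with LPS minus PBS above and PTX minus PBS below. Black bars are medians of the group, the orange dashed line is the median of all measured genes (-0.08 above, 0.01 below) and dotted lines mark 2-fold. With LPS the medians lie between 0.18 for complex I assembly factors and 0.87 for complex II, and with PTX between -0.33 and 0.27 for the same groups.

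Complex I, the NADH dehydrogenase, had 33 measured subunit genes with a median difference of 0.53 in LPS against PBS and 29 above 0. Its core subunits, among them those that bind the flavin and the iron-sulfur clusters, were divided. Ndufv2, an iron-sulfur subunit of the NADH-oxidizing arm, read 2990 on the LPS array, 1522 on the PTX array and 1506 on the PBS array, a difference of 0.98 in LPS against PBS. Ndufs3 (0.85), Ndufs7 (0.55) and Ndufv1 (0.27) were above 0, while Ndufs1 (-0.05) and Ndufs8 (-0.06) were close to 0.

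Among the 27 measured accessory subunits of complex I, which surround the core and are needed for its assembly or stability, 25 were above 0 in LPS against PBS. Ndufs4 read 2573 with LPS, 1119 with PTX and 1125 with PBS (1.18), and Ndufs5 read 2453 with LPS, 1007 with PTX and 1116 with PBS (1.12). For both, the LPS reading stood clear of the other arrays, which lay close together. The other measured probe sets of Ndufs4 differed by 0.62 and, in the dimmest, by -0.11, so the size of its difference depended on the probe set. Ndufa8 (0.93), Ndufa3 (0.92) and Ndufa9 (0.91) came next. Those at or below 0 were Ndufv3 (-0.07) and Ndufb11 (-0.03), although 1 of the other probe sets of Ndufb11 differed by 0.43.

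The assembly factors of complex I, which build the enzyme and are not part of it, had a median of 0.18 over 8 genes with 6 above 0, which was -0.04 with 3 above 0 under control centring and 0.38 with all 8 above 0 after quantile normalization. Ndufaf3 was the exception at 795 with LPS, 369 with PTX and 335 with PBS (1.21), and the other 7 lay between -0.16 (Ndufaf2) and 0.43 (Ndufaf5). With the brightness curve subtracted the assembly factors had a median of 0.32 and the subunits of complex I one of 0.34.

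Complex II, succinate dehydrogenase, is the enzyme that the respiratory chain shares with the TCA cycle and had the highest LPS minus PBS median of the 5 complexes (0.87 over its 4 genes). Sdhc, a membrane anchor, read 1207 on the LPS array, 392.5 on the PTX array and 372.1 on the PBS array, a difference of 1.66 or 3.15-fold that was the largest among the members, and its second probe set differed by 1.10. Sdhb, whose promoter is printed above, read 4024 with LPS, 2771 with PTX and 1952 with PBS (1.04). Sdhd, the other anchor, differed by 0.70 and Sdha, the flavoprotein that oxidizes succinate, by 0.18 (1869 with LPS, 2274 with PTX and 1650 with PBS). The complex thus spanned 0.18 to 1.66 and its genes did not shift by a common amount.

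All 9 genes of complex III, the cytochrome bc1 complex, were above 0 in LPS against PBS, with a median of 0.66 and none at least 2-fold higher. Uqcr10 (0.97), the cytochrome c1 gene Cyc1 (0.91) and Uqcrh (0.84) were highest, and the Rieske iron-sulfur gene Uqcrfs1 (0.37) and the core protein gene Uqcrc2 (0.28) lowest. Cyc1 read 3038 with LPS, 1503 with PTX and 1611 with PBS. The second probe set of Uqcrc2 differed by 0.97, which is as much as the highest member of the complex. Cycs, the mobile carrier between complexes III and IV, read 3914 with LPS, 2343 with PTX and 2703 with PBS (0.53), and its 2 other measured probe sets were further apart, at 0.85 and 1.15.

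Complex IV, cytochrome c oxidase, had 11 measured subunit genes of general expression with an LPS minus PBS median of 0.68. Ndufa4, named for complex I but a subunit of complex IV, read 1924 with LPS, 640.8 with PTX and 797.4 with PBS (1.25, or 2.39-fold). It was followed by Cox7a2 (0.90), Cox8a (0.85) and Cox5b (0.82), while Cox4i1 lay at 0.39. Cox7a2l, a factor in the joining of complexes III and IV into supercomplexes, was below 0 at -0.12 (3590 with LPS, 4676 with PTX and 3915 with PBS), with its other probe sets at 0.00 and 0.35. Cox7c lay at -0.28, read from a dim probe set with 180.3 on the LPS array, 179.9 on the PTX array and 221.9 on the PBS array.

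The isoforms of complex IV that are known from heart and skeletal muscle, lung or testis, or that respond to hypoxia, were mostly near or below the measured level. Cox6b2, Cox7b2, Cox8b and Ndufa4l2 stayed below the measured level on every array, at 27.5 to 73.3. Cox4i2 reached it narrowly with 99 on the LPS array, 81.2 on the PTX array and 79.9 on the PBS array. Cox7a1 reached it on the PBS array alone, at 51.8 with LPS, 36.6 with PTX and 82.6 with PBS. Cox8c read 263 with LPS, 283.1 with PTX and 278.6 with PBS, and Cox6a2 read 258.8 with LPS, 114.7 with PTX and 205.1 with PBS.

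Complex V had 17 measured genes, 15 of them above 0 with LPS, and their LPS minus PBS median was 0.48. In the F1 part, the catalytic head, the beta subunit gene Atp5b (0.62), the alpha subunit gene Atp5a1 (0.48), Atp5e (0.44) and Atp5d (0.26) were above 0, and the gamma subunit gene Atp5c1 was level at 0.02 (4290 with LPS, 5030 with PTX and 4244 with PBS). In the stalk and membrane part Atp5l (0.72) and Atp5h (0.71) were high and Atp5j (-0.07) was level. The genes Atp5g1, Atp5g2 and Atp5g3 encode the same mature c subunit of the membrane ring behind different targeting peptides, and they differed from one another. Atp5g1 read 2601 with LPS, 756.4 with PTX and 1182 with PBS (1.13), Atp5g3 read 10266 with LPS, 6090 with PTX and 6512 with PBS (0.66), and Atp5g2 read 2105 with LPS, 2710 with PTX and 2579 with PBS (-0.29). The LPS array thus held the highest reading of Atp5g1 and Atp5g3 and the lowest of Atp5g2, whose difference was 0.03 with median centring. A dim probe set of Atp5g2 went the other way, at 96.2 with LPS, 38.7 with PTX and 42.3 with PBS (0.95).

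**Figure D3:**
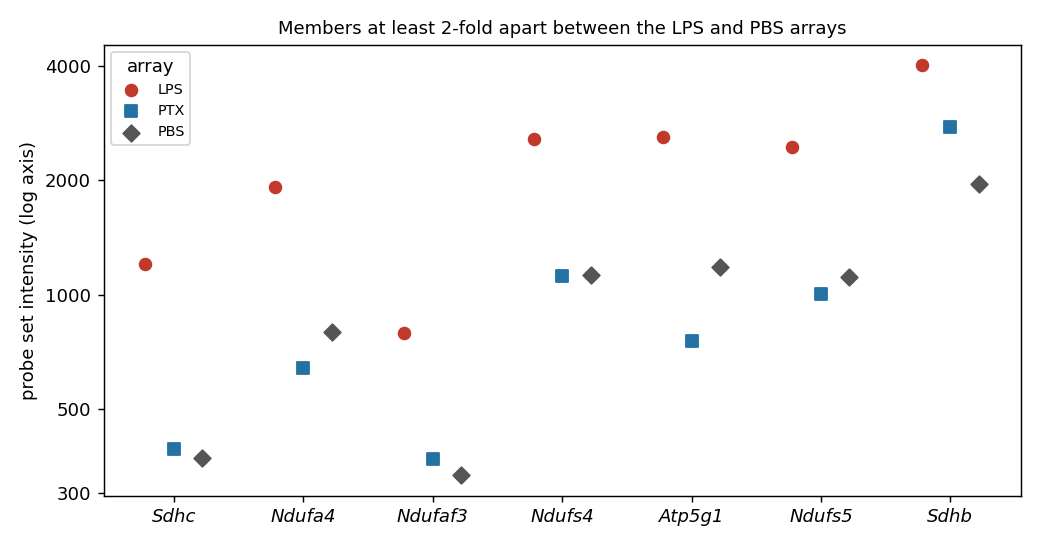
Intensity on a log axis (y axis) of the 7 members at least 2-fold higher in LPS against PBS (x axis, from Sdhc at 1.66 to Sdhb at 1.04), with the LPS array left, the PTX array in the middle and the PBS array right within each gene. The LPS reading is the highest for each of the 7, and the PTX reading lies below the PBS reading for Ndufa4, Atp5g1, Ndufs4 and Ndufs5.

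Of the 7 genes past 2-fold with LPS, all 7 stayed so with arrays centred on their medians, 6 after the brightness curve was subtracted, 3 after quantile normalization and 2 with arrays centred on the hybridization controls. The lowest value over the alternatives was 1.17 for Sdhc, 1.03 for Ndufa4 and 0.98 for Ndufaf3, and it was 0.56 for Ndufs4, 0.74 for Sdhb, 0.90 for Atp5g1 and 0.90 for Ndufs5.

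Probe sets of a gene gave another view of the spread. Of the 50 members with several measured probe sets, 35 had all of them above 0 in LPS against PBS and none had all of them below, and the median SD between probe sets of a gene was 0.26 on the log2 scale. That SD shows disagreement between probe sets and not between samples. In 4 genes a probe set collapsed on the LPS array while the others of the gene did not. One of Ndufs8 read 101.2 with LPS, 1222 with PTX and 1602 with PBS, while its 5 others differed by -0.06 to 0.08. One of Sdhd read 47.3 with LPS, 1129 with PTX and 1035 with PBS, one of Atp5g2 read 5.91, 518.8 and 458.6 in that order, and one of Ndufc2 read 25.2, 232.1 and 225.7. Over all probe sets with 1 symbol, 1.92% were at least 4-fold lower on the LPS array than on both others, while 0.0544% were so on the PTX array and 0.134% on the PBS array. The members' share on the LPS array was 2.17%, near that of all probe sets. None of the 4 was the probe set that represented its gene above.

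**Figure D4:**
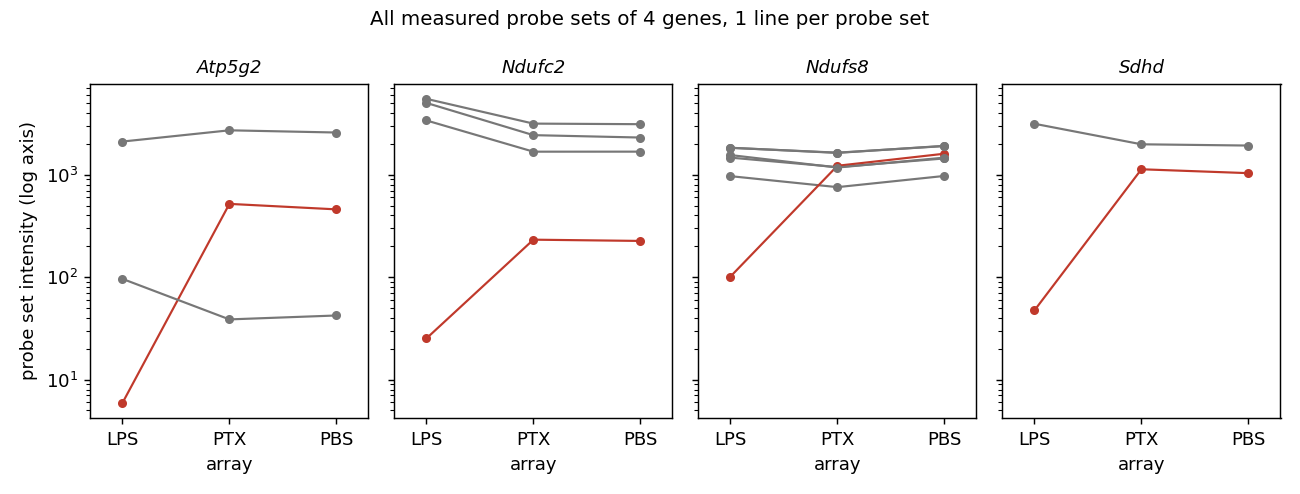
Intensity on a log axis (y axis) of every measured probe set of Atp5g2, Ndufc2, Ndufs8 and Sdhd on the LPS, PTX and PBS arrays (x axis), with 1 line per probe set. The red line in each panel is the probe set at least 4-fold lower on the LPS array than on both others, at 5.91 to 101.2 there, and the grey lines are the other probe sets of the gene.

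In PTX against PBS the same genes hardly differed. The median of the 87 genes was -0.06, with 35 of them (40.2%) above 0, against 0.01 and 50.7% for all measured genes. The offset was small and downwards beside bright genes too. The 70 bright members had a median of -0.04 with 42.9% above 0, against 0.06 and 57.2% for the 2390 other bright genes. With the brightness curve subtracted the median of the 87 was -0.11, with 26 above 0. The count of members past 2-fold was 0 in either direction, where 3.04% of all measured genes were higher and 2.37% lower by that much, and 5.77% and 1.42% of the 2390 other bright genes. The PTX minus PBS differences do not use the LPS array. That array does enter the measured level, the choice of probe set, the choice of bright genes and the brightness curve. The members ranged from -0.91 (Cox7a1) to 0.50 (Sdhb), and the median SD between the probe sets of a member was 0.065.

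Within that narrow range, and with complex IV taken whole, complex II had the highest median and the assembly factors of complex I the lowest. The 4 measured tissue isoforms of complex IV on their own had a median of -0.37. PTX against PBS shares the PBS array with LPS against PBS above. All 4 complex II genes were above 0 in PTX against PBS, with Sdhb at 0.50 and Sdha at 0.46, and Sdhc (0.07) and Sdhd (0.04) close to 0. The other measured probe sets of Sdha differed by 0.32 and, in a dim one, by 0.71, and that of Sdhc by -0.12. The 8 assembly factors of complex I had a median of -0.33 with 1 above 0, and the 33 subunits one of -0.06. Ndufaf2 read 250.3 with PTX and 468.7 with PBS (-0.86), and Ndufaf4 read 318.2 with PTX and 526.6 with PBS (-0.70). The second probe set of Ndufaf4 differed by -0.15, so the size of its difference was not shared by its probe sets.

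Among the subunits of complex I, Ndufb6 (-0.44), Ndufb2 (-0.42) and Ndufv3 (-0.39) were lowest in PTX against PBS and the core subunits Ndufs3 (0.31) and Ndufs7 (0.27) highest. Ndufv2 (0.01), Ndufv1 (-0.06), Ndufs1 (-0.15) and Ndufs8 (-0.23) were the other core subunits measured. Complex III had a median of -0.05, from Uqcrq at -0.42 and Uqcr11 at -0.34 to Uqcrc2 at 0.24, and Cyc1 lay at -0.10. Cycs lay at -0.20, with its other measured probe sets at -0.36 and -0.37. Complex IV had a median of 0.02, with Cox7a2l highest (0.26), Ndufa4 at -0.31 and Cox6a2 at -0.76.

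For complex V the PTX minus PBS median was -0.07, with 4 of 17 genes above 0. Atp5g1 was lowest (-0.63), and the other c subunit genes lay at -0.10 (Atp5g3) and 0.07 (Atp5g2). Atp5c1 was highest (0.24, with a second, dim probe set at 0.38), and Atp5b and Atp5e were both at -0.15, Atp5a1 at -0.08 and Atp5d at 0.05.

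PTX against LPS shares both arrays with the comparisons above and gives the distance between the stimuli named in the series title. The median of the 87 genes was -0.65, with 7 (8.05%) above 0, against 0.09 and 56.5% for all measured genes. Of the members 12 (13.8%) were 2-fold or more lower with PTX and 0 that much higher, where these shares were 6.24% lower and 13.7% higher over all measured genes. Over the 2390 other bright genes they were 6.9% lower and 5.65% higher, and their median was -0.10. The 12 became 43 with median centring, 7 with a pseudocount of 64 and 4 with control centring. All measured genes past 2-fold numbered 767 lower and 1681 higher as deposited, 1522 and 1093 with median centring, 1023 and 1252 after quantile normalization, and 476 and 2248 with control centring. The 12 were Atp5g1 (-1.76), Sdhc (-1.58), Ndufa4 (-1.56), Ndufs5 (-1.27), Ndufb2 (-1.19), Ndufs4 (-1.19), Ndufaf3 (-1.08), Cox6a2 (-1.07), Ndufa12 (-1.05), Uqcr11 (-1.02), Uqcr10 (-1.02) and Cyc1 (-1.01). Ndufa12 had 3 other measured probe sets, of which 2 differed by -1.07 and -1.23 and the third, a dim one, by 0.92 (74.3 with PTX and 31.6 with LPS). Complex III had the lowest median (-0.73, all 9 genes below 0), and complex IV the one nearest 0 (-0.44 over 15 genes, tissue isoforms included), although its 11 general subunits alone had -0.66. The 7 above 0 were Cox7a2l (0.38), Atp5g2 (0.36), Sdha (0.28), Atp5c1 (0.23), Cox8c (0.10), Ndufa1 (0.08) and Atp5j (0.04). Over the 3 arrays the LPS reading was the highest for 72 of the 87 members (82.8%), against 34.4% of all measured genes.

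The other genes of the pathway were read from lists of assembly factors, regulators and TCA cycle enzymes. Of 37 measured assembly factors of complexes I to V outside the rule, 27 (73.0%) were above 0 in LPS against PBS (median 0.31), where 44.0% of all measured genes were. With control centring 20 were above 0 (median 0.083). Past 2-fold upwards were the cytochrome oxidase factors Coa3 (1.25) and Cox18 (1.04) and the succinate dehydrogenase factor Sdhaf1 (1.23), and past 2-fold downwards was Coa4 (-1.11, at 31 with LPS and 85.6 with PBS). These were 8.11% and 2.70% of the list, against 6.5% and 13% of all measured genes, so the upward share was near the background. In PTX against PBS the median of the 37 was -0.10, and Surf1, a cytochrome oxidase assembly factor, was the 1 gene past 2-fold (1.10, at 1216 with PTX and 556.9 with PBS). That is 2.70% of the list, near the 3.04% of all measured genes past 2-fold upwards.

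The regulators mostly lay below 0 in LPS against PBS. Of 13 measured genes that control mitochondrial transcription, DNA replication or the nuclear genes of the chain, 2 (15.4%) were above 0 (median -0.34). Over all measured genes 44.0% were, with a median of -0.08. In PTX against PBS 3 (23.1%) of the regulators were above 0 (median -0.22), against 50.7% and 0.01 for all measured genes. Nrf1 read 137 with LPS, 214.1 with PTX and 252.2 with PBS (-0.81 in LPS against PBS). Gabpa, which encodes the DNA-binding subunit of GABP, read 363.4 with LPS, 635.2 with PTX and 697.3 with PBS (-0.91), and Tfb2m, a mitochondrial transcription factor, differed by -0.92. Twnk, the mitochondrial DNA helicase, stood out with 1163 on the LPS array, 153.9 on the PTX array and 200.2 on the PBS array (2.45). It was the 1 regulator past 2-fold upwards (7.69%, against 6.5% of all measured genes). With the brightness curve subtracted the regulators' median was -0.15 with 5 of 13 above 0, and with median centring it was -0.015 with 6 above 0.

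TCA cycle enzymes, which supply the chain with NADH and succinate, had 16 measured genes. In LPS against PBS 10 (62.5%) were above 0 and none was past 2-fold, with a median of 0.17 that was -0.059 with control centring. Above 0 were 44.0% of all measured genes and 63.5% of the 2390 other bright genes, whose median was 0.19. The share of the enzymes was thus near that of the other bright genes. Their median in PTX against PBS was -0.23, from Idh3a at -0.65 to Idh3b at 0.71. In that comparison 3 (18.8%) were above 0, against 50.7% of all measured genes. The inhibitor of ATP synthase, Atpif1, differed by -0.33 in LPS against PBS and by -0.13 in PTX against PBS. Of the genes encoded in mitochondrial DNA the annotation named ND5, a complex I subunit, which read 9151 with LPS, 8741 with PTX and 7211 with PBS.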

How the data were processed

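The authors deposited a linear intensity for each probe set on each of the 3 arrays, none below 1. Per the labels' protocols, the arrays were made from 3 µg of RNA with Affymetrix one-cycle labelling. The summary program, background correction and scaling behind the intensities were not given in the sources used here. Log2 values were taken after adding 16, with no further scaling. Probe sets with several symbols (932) or none were left out, and all 92 member symbols matched the RefSeq gene table by gene ID. The members and lists were chosen with earlier results of these data known. Genes are named where they were at least 2-fold apart, among the 3 highest or lowest of a complex, core or F1 subunits, complex II, Cycs, Cyc1 or tissue isoforms; others (probe set or paralogue spread, regulators, Atpif1) were chosen after their values were seen. The brightness curve was a lowess fit (span 0.3) over all measured genes. Depth has no meaning for arrays, and their number (3) limits the precision. In all, 9 alternatives were planned and 1, the brightness curve, was added after seeing the data. Python 3.11.15, numpy 2.4.6, pandas 2.3.3 and statsmodels 0.14.6 were used.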

Additional observations from a re-analysis of the deposited data

How the results depend on the processing

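No paired analysis was possible because each group held 1 array. A median was counted as moved when it shifted by more than the median SD between probe sets of a member gene, 0.26, 0.065 and 0.27 for LPS over PBS, PTX over PBS and PTX over LPS, and a count when it shifted by over 1.5 times. The medians of all members kept their sign in each comparison under all 10 alternatives.

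In this section complex I includes its assembly factors (41 measured genes) and complex IV its tissue isoforms (15 measured genes). As deposited, these sets had medians of 0.43 and 0.56 in LPS against PBS, other than the subunit medians given above. With arrays centred on their medians, the LPS against PBS median was 0.84 with 30 genes at least 2-fold higher. Complexes I to V then had medians of 0.75, 1.19, 0.98, 0.88 and 0.81, with Cycs at 0.85. PTX against LPS then had a median of -0.99 with 43 genes at least 2-fold lower, complex medians of -0.98, -0.94, -1.07, -0.78 and -0.92, and Cycs at -1.08. With quantile normalization 3 genes were at least 2-fold higher in LPS against PBS, complexes II to V had medians of 0.59, 0.22, 0.24 and 0.16 and Cycs was at 0.22. PTX against PBS then had a median of -0.17, complexes I, II, III and V had -0.19, 0.14, -0.18 and -0.20, Cycs was at -0.35, and complex IV turned to -0.044. With arrays centred on the hybridization controls 2 genes were at least 2-fold higher in LPS against PBS and 4 lower in PTX against LPS. With the brightness curve subtracted, complexes III, IV and V had medians of 0.29, 0.28 and 0.21 in LPS against PBS.

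A pseudocount of 1 gave 1 gene at least 2-fold lower in PTX against PBS (Cox7a1), and one of 64 gave 7 in PTX against LPS. Without probe sets ending in _x_at, _s_at or _a_at, 66 members were measured, 1 gene was at least 2-fold lower in LPS against PBS (Ndufa12, at -1.46), Ndufa12 turned to 0.92 in PTX against LPS, and Cycs was at 0.85 (LPS over PBS), -0.36 (PTX over PBS) and -1.21 (PTX over LPS). With the mean of a gene's measured probe sets, Atp5g2 and Sdhd were the 2 genes past 2-fold downwards in LPS against PBS and the 2 past it upwards in PTX against LPS, complex II had medians of 0.52 and -0.021 in these comparisons, and Cycs was at 0.84, -0.31 and -1.16. The cause of these changes was not tested, apart from the collapsed probe sets that enter the means. Of the 1079 values of single named genes under the alternatives, 870 stayed within the SD between probe sets, 208 moved and 1 was reversed. Part of the 870 was fixed in advance. A change of filter leaves a gene's value as it was, and control centring shifts every value by less than that SD. Part of the 208 was fixed as well. Median centring shifts every value and every median in LPS against PBS and PTX against LPS by more than that SD. It gave 74 of the 208. Another sign than as deposited was seen in 55 of the values, mostly values near 0, 9 of them in LPS against PBS with median centring. Among genes past 2-fold as deposited, Ndufa12 was the 1 that changed sign.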
